A study of Mus musculus with 6 samples.

Results

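The calsyntenin genes *Clstn1*, *Clstn2* and *Clstn3* were examined in subcutaneous white adipose tissue (scWAT), the inguinal fat in which beige adipocytes form. The 3 genes were chosen by symbol among the 55401 genes of the count files, and all 3 passed the filter on low counts. Control mice were homozygous for floxed *Yap* and floxed *Taz* and carried no Cre (n = 3). The sample labels call them WT, and they are named YT-FF here after the study's methods. The other mice, YT-AKO, had the genotype Yapfl/fl/Tazfl/fl;AdipoqCre (n = 3), so that both groups share the floxed alleles and differ in the presence of Cre. The *Adipoq* promoter that drives it marks mature adipocytes, and the other cells of the whole fat pad keep the genes. All mice were males of 8 weeks kept at room temperature. The comparison asks how expression in scWAT differs when YAP and TAZ, the coactivators of the Hippo pathway, are deleted in adipocytes. The study's methods give 3 mice per group, so each library was taken as 1 mouse, though the labels do not tie a library to an animal.

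Calsyntenins are single-pass membrane proteins of the cadherin superfamily, best known from neurons. Their cytoplasmic tails bind kinesin light chains and adaptors of the X11 family, which links them to the transport of vesicles and of the amyloid precursor protein, and their extracellular parts are shed by ADAM proteases before γ-secretase cuts the remaining stub. CLSTN3 also binds neurexins at synapses. The *Clstn3* locus gives rise in thermogenic adipocytes to a further product, calsyntenin 3β (CLSTN3B), made from the 3′ part of the locus. Accounts of this product differ. One ties it to the release of the calcium-binding protein S100B, which acts on sympathetic nerve endings, and another disputes that role and places it at lipid droplets, where it limits their fusion.

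The libraries held 17740987 to 21838493 counted fragments. YT-AKO 2 stood apart, with 20501 genes detected against 22810 to 24576 in the other 5 libraries and a TMM factor (the scaling of library sizes) of 0.777 against 0.954 to 1.16. *Yap1* had 1295 to 1622 counts in YT-FF and 492 to 649 in those labelled YT-AKO, a log2 fold change of -0.98 (adjusted p = 0.0179). *Wwtr1*, which encodes TAZ, went against the label, with 1729 to 1918 counts in YT-FF and 2253 to 3015 in those labelled YT-AKO, a log2 fold change of 0.89 (adjusted p = 0.0220, both by the quasi-likelihood test of edgeR after Benjamini-Hochberg adjustment). The counts sum all exons of a gene, so the loss of a floxed exon is not visible in them, and every direction given here follows the labels. Of 16807 tested genes, 12.6% were called higher with the YT-AKO label and 9.01% lower, a call being an adjusted p under 0.05 throughout (21.6% in either direction). The groups did not overlap in 51.5% of genes, with all libraries labelled YT-AKO above in 25.7% and below in 25.8%. Of all calls 58.3% were higher, which became 28.7% with scaling by library totals alone, a setting that moved the median log2 fold change of all tested genes from -0.02 to -0.34, and 68.9% after a correction for exon length. The log2 fold change fell with exon length over all tested genes (Spearman rho -0.376, and -0.283 without YT-AKO 2).

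*Clstn1* (ENSMUSG00000039953) lies on the plus strand of chromosome 4, from 149586468 to 149648899 of mm10, with 4662 bases of counted exons. *Clstn2* (ENSMUSG00000032452) spans 588787 bases of the minus strand of chromosome 9, from 97444395 to 98033181, with 5691 exon bases. *Clstn3* (ENSMUSG00000008153) has the shortest span, 34214 bases on the minus strand of chromosome 6, from 124430581 to 124464794, but the most exon bases, 5867. No exon of the 3 genes is overlapped by an exon of another gene, so no fragments were left out of their counts for that reason. The bases around the annotated starts, from 100 before to 20 after the first transcribed base, are shown because the members differ in these stretches. The starts are those of RefSeq on GRCm38.p6, with a pair for *Clstn3*, each 5′ to 3′ on the gene's own strand. In GENCODE vM21, another annotation, *Clstn1* and *Clstn2* also have coding transcripts with differing starts. Capitals mark the letters TGACGTCA, the full cyclic AMP response element (CRE).
Clstn1, chr4:149586368-149586487: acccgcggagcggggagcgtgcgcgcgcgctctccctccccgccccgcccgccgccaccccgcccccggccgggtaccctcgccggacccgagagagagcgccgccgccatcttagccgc
Clstn2, chr9:98033148-98033267: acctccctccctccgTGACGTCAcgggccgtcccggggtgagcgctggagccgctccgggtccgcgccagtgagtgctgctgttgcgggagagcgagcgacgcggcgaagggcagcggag
Clstn3, start 1, chr6:124464765-124464884: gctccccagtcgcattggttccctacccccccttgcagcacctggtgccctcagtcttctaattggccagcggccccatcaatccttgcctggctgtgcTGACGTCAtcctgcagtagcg
Clstn3, start 2, chr6:124462725-124462844: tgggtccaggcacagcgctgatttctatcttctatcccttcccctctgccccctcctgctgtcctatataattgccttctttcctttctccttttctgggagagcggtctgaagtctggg

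The windows of 300 bases around these starts were searched on both strands for 4 motifs. TGACGTCA, which reads the same on both strands, was found at positions -85 to -78 of *Clstn2* and -1 to 7 of the first *Clstn3* start, counted from the first transcribed base as 1. It was chosen after the sequences had been read, and 1.79% of the 32851 windows of all genes hold it. Its half-site TGACG, in 20.8% of all windows, was found in the calsyntenin windows only within these full elements. GGAATG, the core motif of the TEAD factors through which YAP and TAZ act, was in 14.7% of all windows and in none of the 4 calsyntenin windows. TTGCNNAA, a C/EBP motif, was in 10.8% of all windows and likewise in none of these 4. This says only that these letters are not in these windows. Neither *Clstn3* window lies in the 3′ part of the locus, from which CLSTN3B is made, and that part was not searched. The windows of *Clstn1* and *Clstn2* were rich in G and C (79.7% and 72.7%), and those of the *Clstn3* starts less so (58.3% and 53%).

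*Clstn3* was the calsyntenin whose expression rose. YT-FF 1 to 3 held 488, 631 and 738 counts of it, and YT-AKO 1 to 3 held 1795, 2446 and 2617. In FPKM, the counts per kilobase of exon after scaling each library by its TMM-adjusted total, these were 3.55, 4.73 and 6.48 against 17.8, 24.6 and 26.4. The lowest library labelled YT-AKO was well above the highest YT-FF library, and the groups did not overlap, as was so for 25.7% of all tested genes in this direction. The mean level rose from 4.92 ± 1.48 to 22.9 ± 4.53 FPKM (SD, n = 3), a 4.66-fold rise with a 95% interval of 3.05 to 7.13. Its log2 fold change was 2.22 with a standard error of 0.265 (edgeR adjusted p = 0.0146), so that 1 of the 3 members was called higher beside 12.6% of all tested genes and 0 were called lower beside 9.01%. In bulk tissue, more cells of a type and more RNA per cell cannot be told apart. Without the library YT-AKO 2 the log2 fold change was 2.17 (adjusted p = 0.00199). Without YT-FF 1 or YT-FF 2 it stayed at 2.03 and 2.19 but was not called (edgeR adjusted p = 0.1 and 0.111), and in these fits 0 and 2 genes were called in all, with 4665 and 4507 genes at an unadjusted p under 0.05.

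*Clstn1*, the most abundant family member in control fat, was not called. Its counts were 1583, 1553 and 1513 in the YT-FF libraries and 1231, 1120 and 1338 in those labelled YT-AKO, or 14.5, 14.6 and 16.7 against 15.4, 14.2 and 17.0 FPKM. The ranges of the groups overlapped, with means of 15.3 ± 1.25 and 15.5 ± 1.40 FPKM (SD, n = 3). The log2 fold change was 0.02 ± 0.149 (standard error, edgeR adjusted p = 0.928), and its 95% interval, -0.33 to 0.37, corresponds to 0.798 to 1.29-fold. The level depended on the scale. In TPM, in which the sum of all length-normalized levels is set equal in every library, *Clstn1* was at 57.9 ± 2.33 in YT-FF and 37.9 ± 11.5 in those labelled YT-AKO, and all 3 of the latter lay below the YT-FF libraries. With scaling by library totals alone the log2 fold change was -0.29 (edgeR adjusted p = 0.261). *Clstn3* was higher on each of these scales, with 13.6 to 23.4 against 43.1 to 71.7 TPM and a log2 fold change of 1.90 under library totals.

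*Clstn2*, the member least expressed here, had 190, 261 and 118 counts in the YT-FF libraries and 141, 73 and 127 in those labelled YT-AKO. These were 1.42, 2.02 and 1.07 against 1.44, 0.756 and 1.32 FPKM, with the lowest value in YT-AKO 2 and overlapping groups. The log2 fold change of -0.36 ± 0.336 (standard error, edgeR adjusted p = 0.446) was not called, and its 95% interval of -1.14 to 0.42 leaves room for a fall to 0.455-fold as well as a rise to 1.34-fold. Its changes over the settings tried ran from -0.67, with library totals alone, to -0.00, after a length correction without YT-AKO 2.

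**Figure D1:**
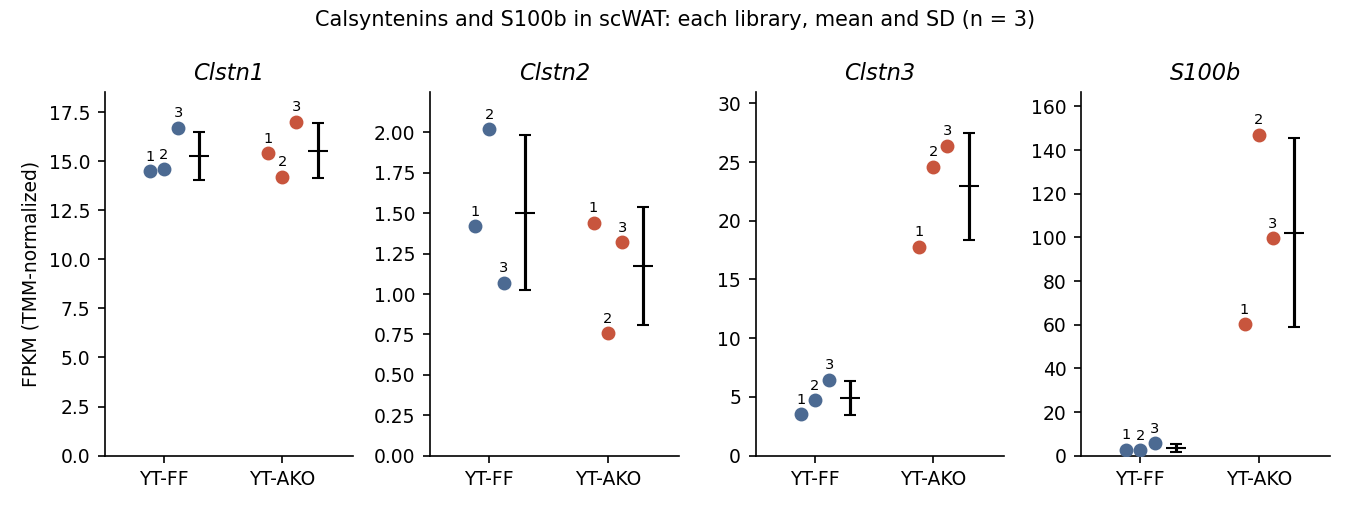
Levels of the calsyntenins and *S100b* in each library, in TMM-normalized FPKM on linear axes from 0, with points numbered by replicate and bars for the mean and SD of 3 libraries. *Clstn3* runs from 3.55 to 6.48 in YT-FF and from 17.8 to 26.4 in those labelled YT-AKO, while the groups overlap for *Clstn1* and *Clstn2*.

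The order of the family members by length-normalized level changed with the label. In every YT-FF library *Clstn1* was highest, *Clstn3* next and *Clstn2* lowest, and in every library labelled YT-AKO *Clstn3* was highest, *Clstn1* next and *Clstn2* lowest. *Clstn1* was 2.58 to 4.08 times as high as *Clstn3* in YT-FF and 0.576 to 0.863 times as high in those labelled YT-AKO. The closest neighbours in this order were *Clstn3* and *Clstn1* in YT-AKO 1, at 17.8 and 15.4 FPKM, and the order there rests on exon lengths that sum all transcripts of a gene. Among all tested genes, the mean FPKM of *Clstn3* moved from the percentile 52.3 in YT-FF to 84.5 in those labelled YT-AKO, whereas *Clstn1* was at 81.5 and 78.5 and *Clstn2* at 27.4 and 25.1.

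The summed FPKM of the family was 21.7 ± 2.42 in YT-FF and 39.6 ± 5.03 in those labelled YT-AKO (SD, n = 3). *Clstn3* made up 18.2%, 22.1% and 26.7% of this sum in YT-FF 1 to 3 and 51.4%, 62.2% and 59.1% in those labelled YT-AKO. The share of *Clstn1* was 70.6% ± 3.33 and 39.4% ± 4.44, and that of *Clstn2* 7.05% ± 2.52 and 3.01% ± 1.13. Ratios between members within a library do not depend on how libraries are scaled. The log2 ratio of *Clstn3* to *Clstn1* was -1.68 ± 0.333 in YT-FF and 0.55 ± 0.301 in those labelled YT-AKO, a difference of 2.22 (two-sided exact permutation test, p = 0.1, the smallest that 3 against 3 libraries allow, 0.150 after Benjamini-Hochberg adjustment over the 3 ratios). The log2 ratio of *Clstn3* to *Clstn2* differed by 2.60, again without overlap (1.23 to 2.60 against 3.62 to 5.01, exact permutation test, p = 0.1, adjusted 0.150). The log2 ratio of *Clstn2* to *Clstn1* differed by -0.38, less than its SD of 0.554 within YT-FF (exact permutation test, p = 0.400, adjusted 0.400).

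**Figure D2:**
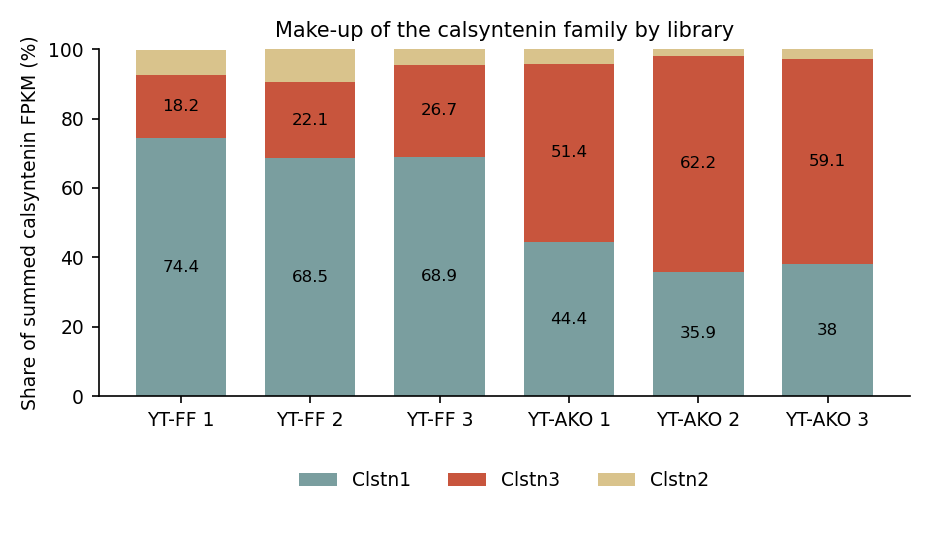
Share of each calsyntenin in the summed FPKM of the 3 genes, in percent, for each of the 6 libraries. *Clstn3* takes 18.2% to 26.7% in YT-FF and 51.4% to 62.2% in those labelled YT-AKO, where it exceeds *Clstn1* in every library.

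The count of *Clstn3* pools all transcripts of the locus. RefSeq lists Clstn3b as a synonym of *Clstn3*, and the files have no row of its own for it, so full-length *Clstn3* and transcripts of its 3′ part cannot be told apart. The GENCODE vM21 annotation, an earlier release on the same genome than the vM25 models counted by the authors, holds 7 transcripts of *Clstn3*, 4 of *Clstn1* and 2 of *Clstn2*. The long coding transcripts of *Clstn3* start at the 5′ end of the locus and 2.0 kb further on, and the short Clstn3-203, annotated as a processed transcript, starts 31.3 kb from the 5′ end and shares 632 of its 728 bases with the long transcripts. Of the 5867 exon bases counted for *Clstn3*, 899 lie in no vM21 exon. The larger stretch of these, 721 bases from 124432687 to 124433407, is 31.4 to 32.1 kb from the 5′ end, in the 3′ part of the locus. Since Clstn3-201 covers only 4014 of the counted bases, the FPKM of *Clstn3* understates the level if the fragments came from a single such transcript, and the same length was used in both groups.

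**Figure D3:**
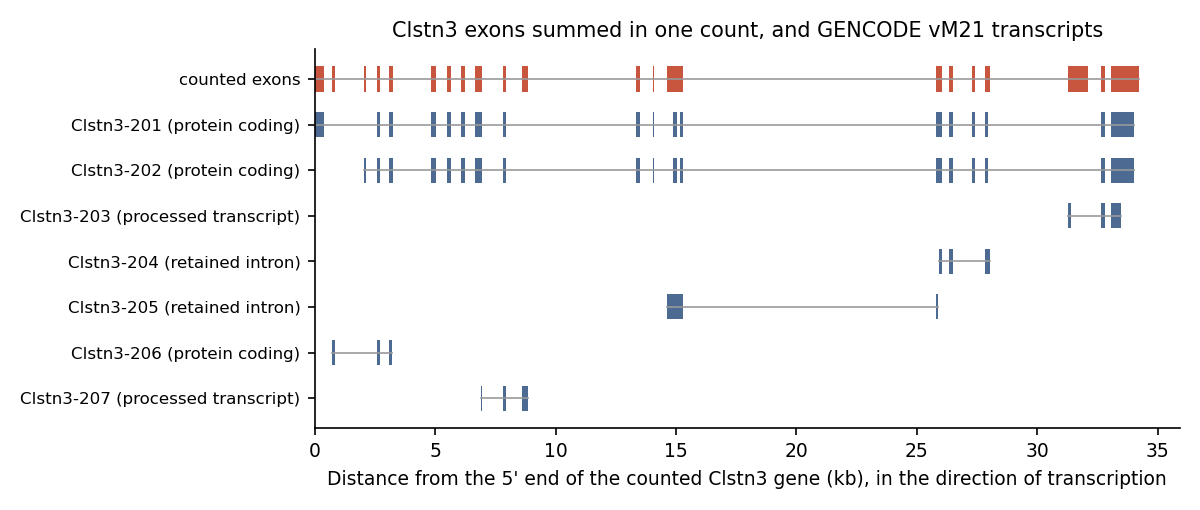
Exons of *Clstn3* along the locus, in kilobases from the 5′ end in the direction of transcription, with the exons summed in the deposited count in the top row and the 7 GENCODE vM21 transcripts below. The counted exons include a wide one 31.3 to 32.1 kb from the 5′ end that no vM21 transcript covers in full.

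*S100b*, the gene of the calcium-binding protein named above, rose as well. Its levels were 2.64, 2.40 and 5.83 FPKM in YT-FF 1 to 3 and 60.1, 147 and 99.6 FPKM in those labelled YT-AKO, a log2 fold change of 4.82 (standard error 0.482, edgeR adjusted p = 0.00851). *S100b* stood at 0.508 to 0.900 times the FPKM of *Clstn3* in YT-FF and at 3.38 to 5.98 times in those labelled YT-AKO. *Ager*, which encodes the S100B receptor RAGE, was counted only 64 to 142 times per library and was not called (log2 fold change 0.56, edgeR adjusted p = 0.251). Of the CIDE genes, whose proteins drive lipid droplet fusion, *Cidea* was at 98.6 to 143 FPKM in YT-FF and at 875 to 1340 FPKM in those labelled YT-AKO, a log2 fold change of 3.17 (edgeR adjusted p = 0.00729). *Cidec*, the CIDE gene of white adipocytes, overlapped between the groups (646 to 974 and 928 to 1110 FPKM) with a log2 fold change of 0.40 (edgeR adjusted p = 0.218). *Cideb*, known from liver, had 1 to 11 counts per library and was not tested.

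The 24 listed partners include genes whose proteins bind or cut calsyntenins. Kinesin heavy chains and the amyloid precursor family, also listed, are linked to calsyntenins through light chains and adaptors. Of the 24 partners 22 were tested, of which 3 were called higher, 1 lower and 18 not called. Their median log2 fold change was -0.05 beside -0.02 over all tested genes. Beside these counts, 12.6% of all tested genes were called higher, 9.01% lower and 21.6% in either direction, so the share called among the partners was near the background.

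Among the kinesin-1 genes, which encode the motor that carries calsyntenin vesicles, 1 of 6 was called. *Klc4*, a light chain, was at 7.86 to 9.43 FPKM in YT-FF and 11.7 to 13.6 FPKM in those labelled YT-AKO, a log2 fold change of 0.55 (edgeR adjusted p = 0.0443), which passed in 4 of the 15 alternatives and was 0.22 under library totals. *Klc1*, the light chain to which CLSTN1 binds, was at 13.1 to 14.7 FPKM in YT-FF and 14.1 to 14.8 FPKM in those labelled YT-AKO (log2 fold change 0.06, edgeR adjusted p = 0.749). *Kif5b*, the ubiquitous heavy chain, ranged from 17.1 to 17.9 FPKM in YT-FF and from 11.5 to 15.6 in those labelled YT-AKO. The latter were lower without overlap, as in 25.8% of all tested genes, but the log2 fold change of -0.37 was not called (edgeR adjusted p = 0.129). After the length correction the log2 fold change of *Kif5b* was -0.03, and -0.01 with that correction without YT-AKO 2.

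Of the X11 adaptors, *Apba3* rose from 11.4 to 14.1 FPKM in YT-FF to 22.0 to 28.0 FPKM in those labelled YT-AKO (log2 fold change 1.01, edgeR adjusted p = 0.0177), called in 11 of the 15 alternatives. *Apba2*, the adaptor through which calsyntenins were first tied to the amyloid precursor protein in neurons, had 0 to 8 counts per library and was not tested. Of the 3 genes of the amyloid precursor family 0 were called by edgeR, with 0 at an unadjusted p under 0.05. *Aplp2* was the most abundant of the listed partners at 156 to 213 FPKM (log2 fold change -0.16), and *App* ranged from 16.2 FPKM in YT-AKO 2 to 30.3 FPKM in YT-AKO 3 (log2 fold change -0.02, and 0.47 after the length correction).

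Of 9 protease genes, 1 was called higher and 1 lower. *Adam10*, which sheds calsyntenin ectodomains, was the gene called lower, from 17.8 to 19.7 FPKM in YT-FF to 11.9 to 13.0 FPKM in those labelled YT-AKO (log2 fold change -0.61, edgeR adjusted p = 0.0262), and it passed in 9 of the 15 alternatives. The related *Adam17* had a log2 fold change of -0.50, or -0.21 after the length correction, and was not called (edgeR adjusted p = 0.0887). Among the γ-secretase genes, *Psenen*, the smallest subunit, rose from 32.9, 33.0 and 41.0 FPKM in YT-FF to 64.9, 143 and 74.9 FPKM in those labelled YT-AKO (log2 fold change 1.40, edgeR adjusted p = 0.0245). It was highest in YT-AKO 2, and its log2 fold change was 0.97 without that library and 0.72 after a length correction without it, called in both and in 11 of the 15 alternatives. *Psen2*, a catalytic subunit, was at 14.6 to 17.3 and 20.3 to 33.1 FPKM and narrowly missed the threshold (log2 fold change 0.69, edgeR adjusted p = 0.0558). It was called by DESeq2 (adjusted p = 0.0277), which called 5423 of 16807 genes. *Ncstn*, the subunit that receives substrates, had a log2 fold change of -0.59 (edgeR adjusted p = 0.0893). The neurexin gene *Nrxn2* had 14 to 42 counts per library and was not called, and *Nrxn3* had 0 counts in every library, below the floor of 3 counts.

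**Figure D4:**
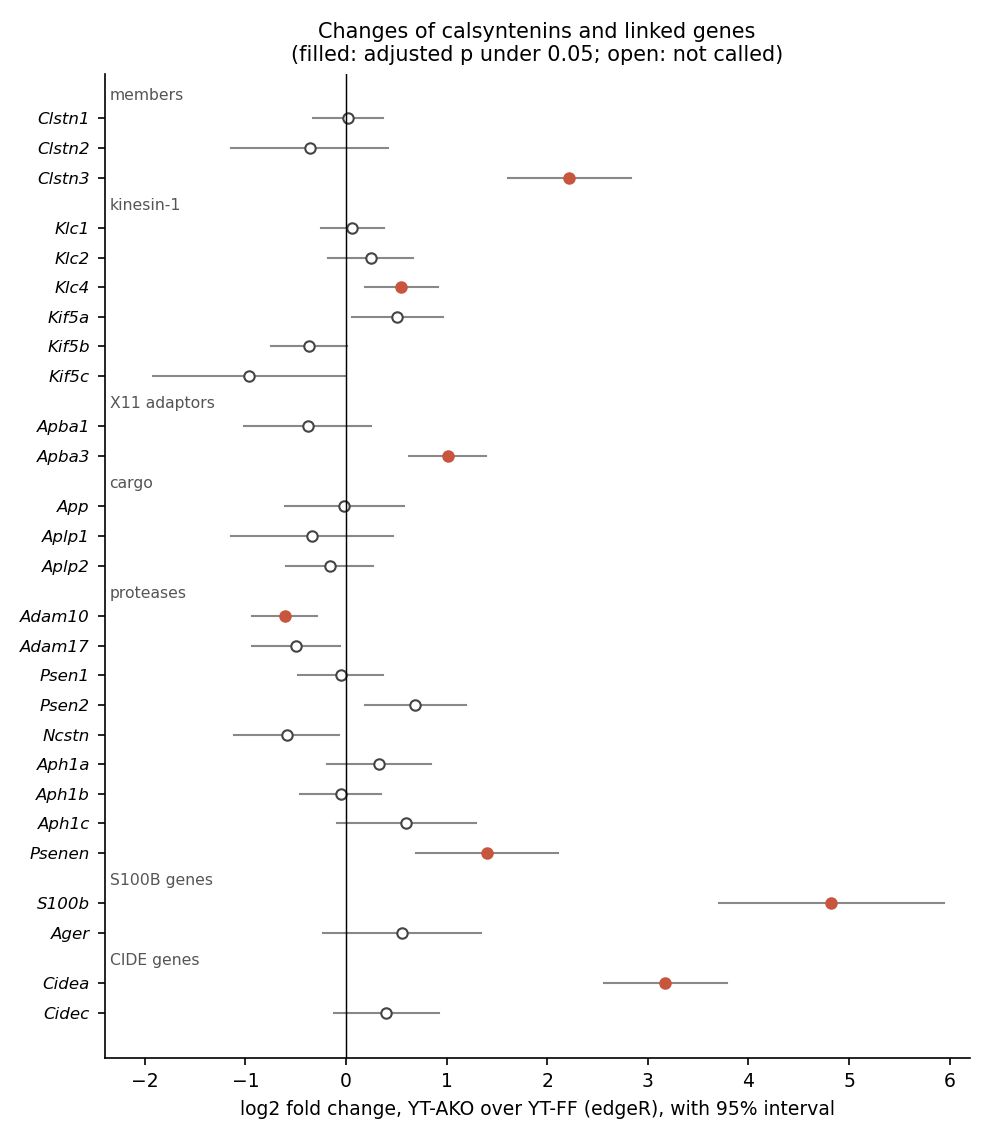
Log2 fold changes of the libraries labelled YT-AKO over YT-FF from edgeR for the calsyntenins, the tested kinesin-1, X11, amyloid precursor family and protease genes, *S100b*, *Ager* and the tested CIDE genes, with 95% intervals. *Clstn3*, *S100b* and *Cidea* lie above 2, and of the partners *Klc4*, *Apba3* and *Psenen* are called higher and *Adam10* lower.

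Of the 6 tested genes next to the calsyntenins on the chromosomes, 0 were called by edgeR, beside 21.6% of all tested genes. *Ctnnbip1*, *Pik3cd* and *C1rl* were called by DESeq2 (adjusted p = 0.0336, 0.0167 and 0.0159), which called 5423 of 16807 genes. Their unadjusted edgeR p-values were 0.0151, 0.0115 and 0.0113, with 0.0490 for *Pex5*, 0.0464 for *Slc25a36* and 0.361 for *Nmnat3*. Over all tested genes, 6852 had an unadjusted edgeR p under 0.05. *Pik3cd* was called in 7 of the 15 alternatives, *C1rl* in 5 and *Ctnnbip1* in 2. *Clstn3* is flanked by *Pex5*, the import receptor of peroxisomes, 15513 bases away (log2 fold change 0.46, edgeR adjusted p = 0.121), and by *C1rl*, a complement C1r-like protease, 28318 bases away. *C1rl* had a log2 fold change of 0.96 (edgeR adjusted p = 0.0513) without overlap of the groups, as was so for 25.7% of all tested genes in this direction. *Clstn1* is flanked by *Ctnnbip1*, an inhibitor of β-catenin (log2 fold change 0.54, edgeR adjusted p = 0.0597), and, only 268 bases away, by *Pik3cd*, a leukocyte PI3-kinase subunit (log2 fold change -0.65, edgeR adjusted p = 0.0516). The genes nearest to *Clstn2* were *Slc25a36* and *Nmnat3*, 333237 and 254253 bases away, at -0.41 and 0.20 (edgeR adjusted p = 0.117 and 0.489).

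The genes most like each calsyntenin over the 6 libraries were found by the root mean square difference in log2 CPM, each gene centred on its own mean, among 13567 genes. For *Clstn3* these were *Gys2*, a glycogen synthase (0.106), *Mapt*, which encodes the microtubule protein tau (0.164), and *Khdrbs3*, an RNA-binding protein (0.207), against a median of 1.20 over all candidates. *Gys2* was at 3.06, 3.74 and 6.10 FPKM in YT-FF and 17.9, 22.8 and 23.1 FPKM in those labelled YT-AKO. As these genes were chosen by their likeness in the same 6 libraries, that likeness is no test of shared regulation. *Mapt* was at 0.600, 0.712 and 0.889 against 3.53, 4.33 and 4.56 FPKM. For *Clstn1* the nearest genes were *Dync1li2*, a dynein light intermediate chain (0.0371), *Clcc1* (0.0388) and *Wrb* (0.0412), against a median of 0.383. For *Clstn2* they were *Fbn1*, the microfibril protein fibrillin 1 (0.114), *Cd276* (0.117) and *Plk3* (0.117), against a median of 0.523.

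Markers of several cell types moved with the label. Of all tested genes, 12.6% were called higher, 9.01% lower and 21.6% in either direction. Of 5 adipocyte markers, which include *Adipoq* and *Plin1*, 3 were called higher, *Fabp4*, *Lipe* and *Pnpla2*, with log2 fold changes of 1.34, 0.84 and 0.79, below the 2.22 of *Clstn3*. *Adipoq* and *Plin1* overlapped between the groups and were not called (edgeR adjusted p = 0.176 and 0.352). The 5 adipocyte markers together summed to 10500 to 15200 CPM in YT-FF and 18500 to 30900 CPM in those labelled YT-AKO. Skeletal muscle markers summed to 90.6 to 335 CPM in YT-FF and 202 to 2350 CPM in those labelled YT-AKO, highest in YT-AKO 1, with 1 of 3 called higher (*Acta1*), and without that library the log2 fold change of *Clstn3* was 2.38. Of 4 progenitor and fibroblast markers 1 was called higher, *Pi16* (192 to 207 against 282 to 384 CPM), and 1 lower, *Dpp4* (51.7 to 64.0 against 24.5 to 37.8 CPM). All 4 together summed to 833 to 949 CPM in YT-FF and 1100 to 1220 CPM in those labelled YT-AKO. Of 6 Schwann cell, 3 endothelial, 3 macrophage and 3 T cell markers 0 were called by edgeR, with 0 at an unadjusted p under 0.05. Their sums were 259 to 332 against 210 to 330 CPM, 404 to 420 against 288 to 377 CPM, 192 to 246 against 214 to 300 CPM and 101 to 145 against 89.1 to 264 CPM. The endothelial markers *Pecam1*, *Cdh5* and *Tek* were each lower with the YT-AKO label without overlap, as were 25.8% of all tested genes. The epithelial markers summed to 2.13 to 2.37 against 2.54 to 3.49 CPM. The sympathetic neuron markers *Th* and *Dbh* had 0 counts in every library, and the 6 neuron markers summed to 5.72 to 6.44 CPM in YT-FF and 5.06 to 9.55 CPM in those labelled YT-AKO. Of these 6 only 1 was tested, and such RNA levels in the fat pad do not measure the density of its nerves. The part of the adipocyte, muscle and progenitor markers in the changes of the calsyntenins was not tested.

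**Figure D5:**
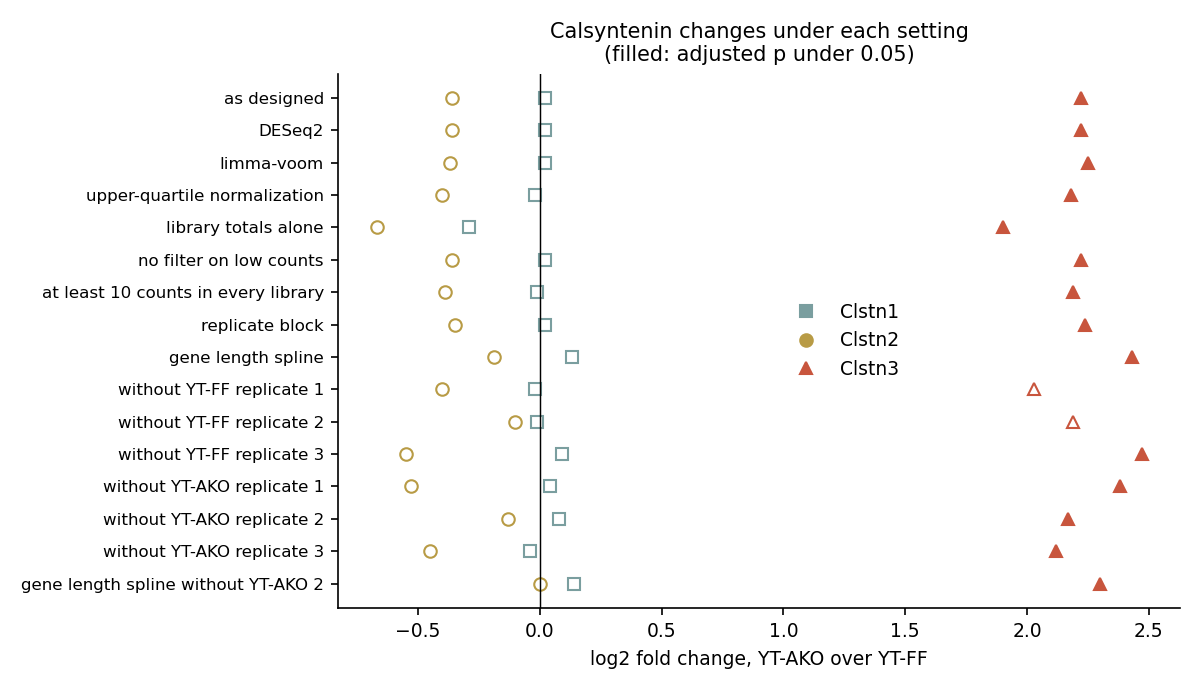
Log2 fold changes of the calsyntenins, libraries labelled YT-AKO over YT-FF, in the reported fit (as designed, top row) and under 15 alternatives, filled where the adjusted p was under 0.05. *Clstn3* stays between 1.90 and 2.47 and is open only without YT-FF 1 or YT-FF 2, while *Clstn1* lies between -0.29 and 0.14 and *Clstn2* between -0.67 and -0.00.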

How the data were processed

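Total RNA of scWAT was sequenced as paired ends by the authors, mapped to mm10 with HISAT2, and counted with featureCounts 2.0.1 on the exons of GENCODE vM25. What they deposited are raw counts per gene, without normalization. Per the file headers, strand was ignored, and neither multiply mapped fragments nor those shared by genes were counted. Symbols were matched for 55141 of 55401 gene identifiers.

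Counts were analysed in R 4.3.3 with edgeR 4.0.16 (TMM, filterByExpr with minimum count 10 and minimum total 15, quasi-likelihood test, Benjamini-Hochberg adjustment over 16807 genes). The biological coefficient of variation was 0.288. Adjusted p-values of single genes come from this fit unless another is named. CPM, FPKM and TPM were derived here, with the exon lengths the files give. Ratios used 0.5 added to each count. Floors of 3 counts cover counting error only.

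The genes named are the members, listed partners, flanking genes and the 3 most similar genes of each member with a mean of at least 1 CPM, and cell type markers. Members and lists were chosen with earlier results of these data known. Alternatives were DESeq2 1.42.0 (the study's tool), limma-voom (limma 3.58.1), other normalizations and filters, the replicate number as a block, a spline of counts on exon length (6 degrees of freedom) and each library left out. The length correction without YT-AKO 2 was added after the data were seen. The fits were tested on simulated counts. No libraries of a group agreed within sampling noise. Some marker and partner genes are not reported here.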

Additional observations from a re-analysis of the deposited data

How the results depend on the processing

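The rise of *Clstn3* kept its direction in all 15 alternatives (log2 fold change 1.90 to 2.47) and its call in 13, DESeq2 (adjusted p = 8.77e-12) and the replicate block (2.24, adjusted p = 0.0377) included. Over the 6 omissions of a single library it was 2.03 to 2.47, *Clstn1* -0.04 to 0.09, *Clstn2* -0.55 to -0.10, and the log2 ratios of *Clstn3* to *Clstn1* 2.05 to 2.39, *Clstn3* to *Clstn2* 2.26 to 3.05 and *Clstn2* to *Clstn1* -0.67 to -0.12. *Clstn1* was not called in any alternative, and its sign turned to -0.02 with upper-quartile normalization, -0.29 with library totals alone and -0.01 with at least 10 counts in every library. Among other uncalled genes, library totals turned *Klc1* to -0.27 and *Nmnat3* to -0.11, the length correction turned *App* to 0.47 and *Aplp2* to 0.04, and the length correction without YT-AKO 2 turned *App* to 0.61, *Ager* to -0.04 and *Slc25a36* to 0.03. With a library left out *App* ran from -0.18 to 0.21 (0.10 without YT-FF 3 and 0.21 without YT-AKO 2). The cause was not tested.

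The number of genes called, 3636, fell to 33 with the replicate number as a block, and ran from 0 to 5349 with a library left out (0 without YT-FF 1, 2 without YT-FF 2, 1232 without YT-FF 3, with 4665, 4507 and 6016 genes at an unadjusted p under 0.05). Deviations of same-numbered libraries correlated at 0.126, -0.118 and -0.0893, so the numbers were not taken to pair the mice. The number of partner genes of calsyntenins called, 4, became 0 with the block, 0 to 6 with a library left out and 7 with the length correction without YT-AKO 2. *S100b* and *Cidea* were called except without YT-FF 1 or YT-FF 2, so their lists of called genes ran from 0 to 1 each. Of the other cadherins, 0 were called by edgeR (1 at an unadjusted p under 0.05) and by limma-voom, and 1, *Cdh4*, by DESeq2, with library totals alone, or with at least 10 counts in every library. The count added did not move the ratios by over 0.01. Pairing libraries by number cannot move the differences of 2.22, 2.60 and -0.38, since a mean of paired differences equals the difference of means. With pairs, the exact sign-flip test gave p = 0.250 for both ratios of *Clstn3* and 0.750 for *Clstn2* to *Clstn1*. *Clstn2* had the fewest counts of the members, 73 to 261 per library.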

Other observations

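Of genes of other members of the cadherin superfamily, 7 were listed and 6 tested. All 6 had log2 fold changes below 0 with the YT-AKO label (median -0.60 beside -0.02 over all tested genes). By edgeR 0 of these were called, with 1 at an unadjusted p under 0.05, beside 9.01% of all genes called lower. DESeq2 called 1, beside 2392 of 16807 genes that it called lower. *Cdh4*, retinal cadherin, was the lowest at -1.22 (edgeR adjusted p = 0.0554) with 29 to 43 counts in YT-FF and 10 to 13 in those labelled YT-AKO. *Cdh5*, the adhesion molecule of endothelial junctions and the most abundant of the list, was at 36.4 to 37.9 FPKM in YT-FF and at 32.7, 15.9 and 29.7 FPKM in those labelled YT-AKO 1 to 3, a log2 fold change of -0.51 (edgeR adjusted p = 0.180). Without YT-AKO 2, the lowest library, that of *Cdh5* was -0.25. The tested cadherin genes have 4203 (*Cdh5*) to 11233 (*Cdh13*) exon bases, and log2 fold changes fell with exon length in these data. The length correction gave -0.93 for *Cdh4* and -0.46 for *Cdh5*. The part of exon length in the shared direction was not tested. Of the epithelial markers, *Krt8* and *Krt18* had 0 to 14 counts per library and were not tested. *Epcam* had 35 to 54 counts and was not called (log2 fold change 0.07, edgeR adjusted p = 0.892).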
